A study of Mus musculus with 10 samples.

Results

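Neural stem cell cultures from female mouse embryos carrying one E147A allele of Smchd1 (E147A/+, n = 2) were compared with cultures from female +/+ embryos (n = 2) on the autosomes. These are the 4 of 10 libraries whose counts were also split into 129 and Cast (Castaneus) alleles, and they were chosen for that reason alone. The gene table holds 52632 genes, of which 47913 are autosomal, and 16369 autosomal genes had enough counts to be tested. All 4 females carried XistdeltaA on one X chromosome, controls included. The mutant allele is labelled Smchd1GFP-E147A and so also carries GFP, which the +/+ allele does not. The remaining 6 libraries are male cultures (E147A/+ n = 3, +/+ n = 3) with no allele-resolved counts, and their values are set beside the female ones. Cells came from the cortex of embryos at day 14.5 and grew attached to laminin with EGF and FGF at 20 ng/mL each. Each embryo's cortices were cultured per the labels, so p-values measure the spread between cultures. The labels describe every embryo as the offspring of a Castaneus father and a mother of mixed 129 and C57 background.

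SMCHD1 is a chromosomal protein of the SMC family with an ATPase domain, known for its part in silencing the inactive X chromosome, some imprinted genes and the clustered protocadherins. The E147A substitution lies in the ATPase domain. Neural stem cells of the embryonic cortex divide in EGF and FGF and can give rise to neurons, astrocytes and oligodendrocytes.

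Total counts were 43377699 and 44519020 in the E147A/+ libraries and 31555904 and 39123104 in the +/+ libraries, and 30.6% to 31.7% of these could be given to an allele. The labels place the E147A/+ embryos in litters 1 and 2 and both +/+ embryos in litter 3, so litter and genotype cannot be told apart in females. Neural stem cell markers were high in every library (summed level 4825 to 6739 CPM, read counts scaled to library size). Microglial and blood markers were under 1 CPM for 9 of 9 genes in each library, and the female libraries held between 5 and 148 counts of 4 Y-linked genes, most in +/+ replicate 1. Smchd1 itself stood at 120 and 116 CPM in E147A/+ and at 140 and 172 CPM in +/+, a log2 fold change of -0.40 (SE 0.24, edgeR adjusted p 0.964) that was -0.24 without +/+ replicate 2. Its total count does not show which library carries a substitution, so it is no check of the genotype labels.

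The allele counts showed that the autosomes were a mosaic of strains, which bears on every gene below. Each 10 Mb bin was called Cast-bearing where its median gene had 35% to 65% Cast reads, and without Cast where it had under 15%. Under the labelled cross each bin would be Cast-bearing in every library. The observed numbers, out of 257 bins, were 80 and 121 in E147A/+ and 141 and 119 in +/+. Bins without Cast numbered 159 and 127 in E147A/+ and 99 and 124 in +/+, with median Cast shares of 0.261% to 1.48%. The 2 states were well apart, since Cast-bearing bins had medians of 48.8% to 49.5%. Libraries of one genotype also differed from each other: the E147A/+ libraries had different states in 143 of 237 bins (60.3%) and the +/+ libraries in 109 of 237 (46.0%). The allele columns do not separate 129 from C57 alleles, so strain differences of that kind are not seen here.

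A bin could therefore carry Cast in both libraries of one genotype and in neither of the other, and in such bins a difference between genotypes is also a difference between strains. Of the 16369 genes, 1719 lay in such bins: 1139 where Cast was in both +/+ libraries only and 580 where it was in both E147A/+ libraries only. Chromosome 17, which holds Smchd1, was the main case, with 92.6% of its genes in such bins. The state was the same in all 4 libraries for 1623 genes. A further 4132 genes had 1 Cast-bearing library in each genotype, here called balanced, and the rest had 1 more Cast-bearing library in one genotype or an unresolved bin.

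The genotypes were tested with edgeR's quasi-likelihood test, with p-values adjusted by the Benjamini-Hochberg method over all genes. Of the autosomal genes 2 (0.0122%) passed an adjusted p of 0.05: Rab26 rose in E147A/+ and Rps18-ps6 fell. At an unadjusted p under 0.05 there were 716 genes (4.37%), 447 higher (2.73%) and 269 lower (1.64%). In simulated counts of the same design, changes of log2 1 were recovered for 4 of 100 genes and changes of log2 3 for 82 of 100. Levels that did not pass are given below as values, and "at p under 0.05" then refers to the unadjusted p.

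**Figure D1:**
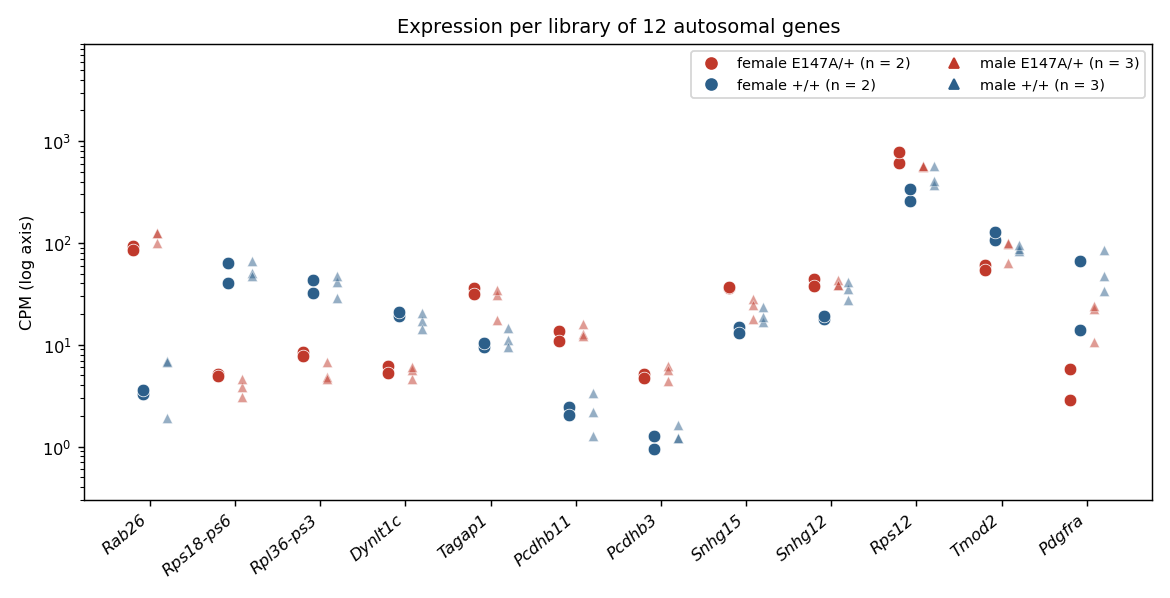
CPM on a log axis for 12 named autosomal genes, with 1 point per library for female E147A/+ and +/+ (circles) and male E147A/+ and +/+ (triangles). Rab26 stood at 94.4 and 85.1 CPM in female E147A/+ against 3.31 and 3.60 in +/+, and male triangles separated in the same direction, while those of Snhg15, Snhg12, Rps12 and Tmod2 overlapped.

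Rab26 (chromosome 17, 24527241 to 24534210, GRCm38) encodes a small GTPase of the Rab family associated with secretory vesicles. Its level was 94.4 and 85.1 CPM in E147A/+ and 3.31 and 3.60 CPM in +/+. Both E147A/+ libraries were thus far above both +/+ libraries, and the spread within each genotype was small. The log2 fold change was 4.70 (SE 0.52, edgeR adjusted p 0.0412). In males the means were 116.4 ± 15.1 CPM in E147A/+ and 5.21 ± 2.84 CPM in +/+ (SD, n = 3 each), a log2 fold change of 4.49 (edgeR adjusted p 0.0061).

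Strain at Rab26 differed between the genotypes by its bin, but not in a simple way at the gene. The bin from 20 to 30 Mb had a median Cast share of 7.44% and 7.27% in E147A/+ and of 50.2% and 50.5% in +/+. Reads of Rab26 itself, however, were 66.0% and 65.6% Cast in E147A/+ (519 and 455 reads of 129, 1009 and 868 of Cast). In +/+ they were 71.0% and 71.4% Cast, from 9 and 14 reads of 129 and 22 and 35 of Cast. Reads assigned to 129 and reads assigned to Cast were thus both more numerous in E147A/+, and the gene's own shares did not follow its bin. Whether the E147A/+ libraries carry a Cast allele at Rab26 was not tested, since reads of C57 origin are not separated here. Shares differed between its neighbours: over the 21 genes within 300000 bp that had at least 20 allelic reads, the median Cast share was 31.9% and 34.3% in E147A/+ and 51.1% and 49.5% in +/+. Of these genes, 15 and 17 had a share of 15% or more in the E147A/+ libraries. Others had almost no Cast reads there, such as Nthl1 (1.67% and 0.62%, against 50.5% and 43.8% in +/+) and Rps2 (0.42% and 0.22%, against 27.1% and 24.5%), both chosen after their values were seen. Across the autosomes the gene's own share went against its bin in 946 of 10214 genes (9.26%), so a bin state is not a genotype of each gene.

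The neighbours of Rab26 did not share its size of difference. Of 28 tested genes within 300000 bp, 0 passed the edgeR threshold and 4 were at p under 0.05 (4.37% of all autosomal genes), with log2 fold changes from -1.48 to 2.51 over the 28. Caskin1, a synaptic scaffold gene, stood at 48.4 and 29.5 CPM in E147A/+ against 13.9 and 17.4 in +/+ (log2 fold change 1.31). Rab26os, annotated within the Rab26 gene, stood at 11.5 and 13.2 CPM against 4.30 and 3.13, with overlapping annotation that makes the split of reads between the pair uncertain. Of the 38 Rab GTPase genes tested, 11 had a positive fold change, the list median was -0.16, and Rab26 was the 1 member that passed. In the test of 129 reads per 129 copy, described below, Rab26 had a log2 fold change of 4.10 (edgeR adjusted p 0.0563). Copies were taken from the bin state, which the gene's own reads did not follow, so the size of this value is uncertain.

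Rps18 is a gene for a protein of the small ribosomal subunit. Rps18-ps6 (chromosome 13, 97760072 to 97760632) is annotated by name as a pseudogene of it, although GENCODE M21 classes Rps18-ps6 as protein-coding. It stood at 5.17 and 4.90 CPM in E147A/+ and at 40.7 and 63.3 CPM in +/+, with no overlap. The log2 fold change was -3.37 (SE 0.31, edgeR adjusted p 0.0162), and in males it was -3.83. Its own bin was unresolved in strain, with median Cast shares of 26.2%, 0.0%, 50.7% and 0.8%, and its own allelic reads were too few for a share. The parent gene Rps18 lies on chromosome 17 (33951999 to 33956001), where its own Cast share was 0.1% and 0.1% in E147A/+ and 42.9% and 43.6% in +/+. Rps18 stood at 1584 and 1494 CPM in E147A/+ and at 889 and 1430 CPM in +/+, so the libraries did not overlap but the test did not pass (log2 fold change 0.41, and 0.10 without +/+ replicate 1).

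The sequences of this pair are close, so the assignment of reads between them is uncertain. Over 561 aligned bases the pseudogene differed from the Rps18 transcript at 20 (96.43% identity), and over the 456 coding bases at 4. Of its 482 windows of 80 bases, the read length, 220 (45.6%) were found unchanged in Rps18. The stretch below, coding bases 157 to 186 of Rps18 counted from 1 at the A of the start codon, shows how little separates them. The capital marks the difference T186C, with the parent's base first.
Rps18-ps6: accaagagggctggagaactcacggaggaC
Rps18: accaagagggctggagaactcacggaggaT

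Rpl36-ps3 and Rps10-ps2, named for parents that also lie on chromosome 17, separated by genotype as well. Rpl36-ps3 (chromosome 12, 12912022 to 12912336) stood at 8.55 and 7.70 CPM in E147A/+ and at 31.9 and 43.4 CPM in +/+. Its log2 fold change was -2.21 (edgeR adjusted p 0.222), and the male one was -2.86, which passed (adjusted p 0.0061). In +/+ its reads were mostly Cast, with 543 and 947 Cast reads against 56 and 103 of 129, and in E147A/+ they were 80 and 86 against 70 and 51. Rps10-ps2 (chromosome 16, 20822145 to 20822640) went the other way, at 360 and 340 CPM in E147A/+ and 152 and 204 CPM in +/+ (log2 fold change 0.98). The parents Rpl36 (529, 467, 289 and 375 CPM) and Rps10 (692, 681, 388 and 569 CPM) had log2 fold changes of 0.58 and 0.52, the latter 0.27 without +/+ replicate 1. Identity to the parent was 98.73% for Rpl36-ps3 and 98.99% for Rps10-ps2, whose windows of read length were found unchanged in the parent in 9 of 236 and 313 of 417 cases.

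All tested genes with a -ps name were then divided by the place of the parent gene, a grouping chosen because of these 3, which are therefore left out of the count. Of the other 19 with a parent on chromosome 17, 5 (26.3%) were at p under 0.05, 4 higher and 1 lower. Of 255 with a parent on another autosome, 17 (6.67%) were at p under 0.05. Among ribosomal protein pseudogenes alone the counts were 4 of 12 and 8 of 105. All counts of such pseudogenes are uncertain, and the part of strain in them was not tested.

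Clustered protocadherins are cell-surface adhesion proteins made from 3 neighbouring clusters on chromosome 18, alpha, beta and gamma, and neurons choose different members for expression. Here the alpha and beta clusters were higher in E147A/+, and the gamma cluster was not, although 0 members passed the adjusted edgeR threshold. For beta, 21 of 21 tested members had both E147A/+ libraries above both +/+ libraries, a state met by 21.9% of all autosomal genes. Of these, 12 were higher at p under 0.05 (2.73% of all genes), and the median log2 fold change was 1.26, against -0.01 for all autosomal genes. Alpha had 10 of 13 members higher without overlap and 1 lower (19.4% of all genes were lower without overlap), with a median of 3.32. The same 10 were higher and the same 1 lower at p under 0.05 (2.73% and 1.64% of all genes). Gamma had 1 of 22 members higher and 8 lower without overlap and 0 higher and 2 lower at p under 0.05, with a median of -0.11. The gamma median was 0.28 without +/+ replicate 1 and -0.49 without +/+ replicate 2. Summed levels were 166 and 138 CPM against 70.6 and 52.6 for beta, 23.2 and 34.3 against 13.1 and 15.9 for alpha, and 444 and 503 against 639 and 409 for gamma.

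Pcdhb11 (37421418 to 37425836) stood at 13.7 and 10.9 CPM in E147A/+ and at 2.45 and 2.05 CPM in +/+, a log2 fold change of 2.45 (SE 0.44, edgeR adjusted p 0.428). Pcdhb3 stood at 5.17 and 4.67 against 0.955 and 1.26 CPM (log2 fold change 2.15), and Pcdhb12 at 3.21 and 2.64 against 0.701 and 0.385 CPM (2.43). Both genotypes were tight for these members, and the gap exceeded the spread within each. Pcdha2 (36939205 to 37187657) stood at 4.02 and 5.02 CPM in E147A/+ and at 0 and 0.103 CPM in +/+. Pcdha5 stood at 1.73 and 5.39 against 0.191 and 0.205 CPM. Alpha members were low in +/+, overlap one another and share their last exons, so the size of their fold changes and the split of reads between them are uncertain. Among gamma members, Pcdhga12 was lower without overlap (2.08 and 2.43 against 5.92 and 4.70 CPM, log2 fold change -1.24), and Pcdhga8 likewise (1.64 and 2.24 against 3.98 and 4.16 CPM, -1.07). Male medians were 4.18 for alpha, 1.28 for beta and -0.13 for gamma, with 21 of 21 beta members positive.

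The protocadherin region was balanced in strain, which allowed the clusters to be compared between libraries of one strain state. There, E147A/+ replicate 1 and +/+ replicate 2 carried no Cast allele, and E147A/+ replicate 2 and +/+ replicate 1 were Cast-bearing. Beta members were higher in E147A/+ in 21 of 21 cases in both pairs, with median differences in log2(CPM + 0.5) of 1.34 without Cast and 0.78 with it. Alpha members were higher in 10 and 11 of 13 cases, with medians of 1.56 and 1.93. The added 0.5 CPM draws differences of low members towards 0, so these medians are not on the scale of the edgeR medians above (3.32 for alpha). Gamma members gave 12 and 4 of 22, with medians of 0.08 and -0.32. Each comparison here is of 1 library with 1 library and has no replicate check.

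**Figure D2:**
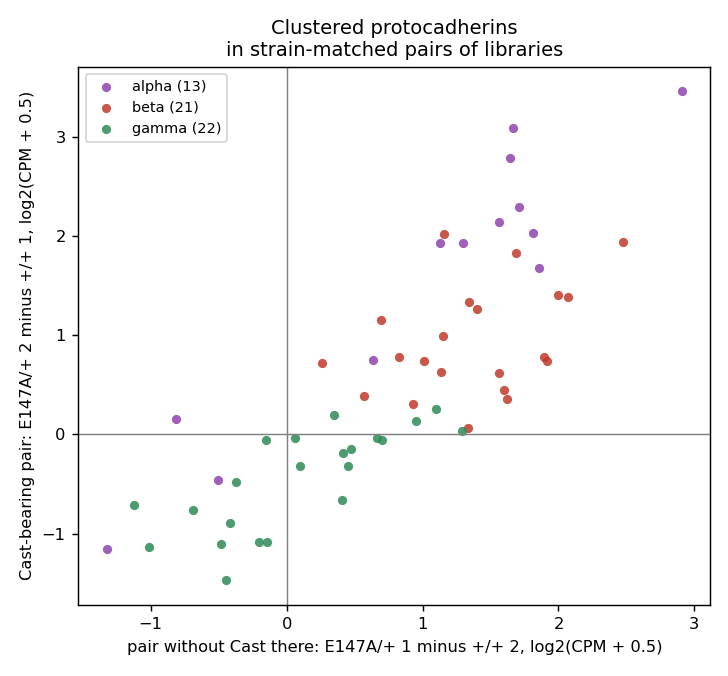
Difference in log2(CPM + 0.5) for each tested clustered protocadherin in 2 strain-matched pairs of libraries, E147A/+ 1 minus +/+ 2 (no Cast allele there) on the horizontal axis and E147A/+ 2 minus +/+ 1 (Cast-bearing) on the vertical axis. All 21 beta members lie above 0 on both axes, with medians of 1.34 and 0.78, and gamma members lie on both sides of 0.

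Both alleles contributed in the Cast-bearing pair. Summed beta reads of the 129 allele were 2.07-fold higher in E147A/+ replicate 2 than in +/+ replicate 1, and those of the Cast allele 2.02-fold. The Cast share of beta reads was 48.8% (95% Wilson interval 47.2 to 50.5) in the former and 49.4% (46.7 to 52.2) in the latter. For alpha the folds were 2.37 and 2.74, and for gamma 0.73 and 0.77. The Wilson intervals, here and below, cover counting error only.

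Genes of glycolysis and the response to low oxygen were the next group with one direction. Of 27 tested members, 27 had a positive log2 fold change, 24 were higher without overlap and 4 were higher at p under 0.05, with a median of 1.09. Of all autosomal genes 48.8% were positive, 21.9% higher without overlap and 2.73% higher at p under 0.05. Ankrd37, a target of the hypoxia-inducible factor HIF1, stood at 25.7 and 25.3 CPM in E147A/+ and at 2.67 and 2.54 CPM in +/+ (log2 fold change 3.29, SE 1.43, but -1.27 with litter as a covariate). Adm, the gene of the vasodilator peptide adrenomedullin, stood at 107 and 97.2 against 49.6 and 41.3 CPM. Vegfa, the vascular growth factor, varied within genotypes, at 1573 and 643 against 149 and 234 CPM, and its log2 fold change of 2.53 became -0.28 with litter. Mif, a cytokine gene, stood at 190 and 205 against 104 and 105 CPM. Gapdh, a glycolytic enzyme, stood at 96.1 and 89.9 against 49.7 and 24.6 CPM, but it has many near-identical pseudogene copies and its counts are uncertain.

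The male median was 0.23, with 23 of 27 members positive and 0 at p under 0.05 (561 of all genes, 3.43%, were at that level in males). The difference between the sexes was not tested for the list. Its summed level moved with litter: in males it was 9169 and 5538 CPM in the E147A/+ and +/+ libraries of litter 3 and 13960 to 16236 CPM in the other 4. Both female +/+ libraries are also of litter 3, at 7366 and 8183 CPM, against 15412 and 12148 CPM in the E147A/+ libraries of litters 1 and 2. Ankrd37 in males was 16.8 ± 14 CPM in E147A/+ and 12.8 ± 14.3 CPM in +/+ (SD, n = 3 each). With litter as a covariate the female median became -0.08, so the direction of this list depends on how litter is treated. In bins of 1 state in all 4 libraries or balanced, 5 of 5 members were positive, and in the test per 129 copy 25 of 26 were, with a median of 1.11.

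Host genes of small nucleolar RNAs, which carry these RNAs in their introns, were listed after Snhg15 and Snhg12 were seen among the genes with the lowest p, so their count is no independent evidence. Of 17 tested, 17 had a positive fold change, 14 were higher without overlap (21.9% of all genes) and 11 were higher at p under 0.05 (2.73%), with a median of 1.01. Snhg15 (chromosome 11, 6525591 to 6528779) stood at 36.3 and 36.9 CPM in E147A/+ and at 14.9 and 12.9 CPM in +/+ (log2 fold change 1.39, SE 0.27, edgeR adjusted p 0.448). Snhg12 stood at 44.5 and 37.5 against 17.8 and 19.09 CPM (1.15), and Zfas1 at 191 and 139 against 62.2 and 67.9 CPM (1.34). The male median was 0.11. In male cultures Snhg15 was 23.6 ± 5.0 CPM in E147A/+ and 19.8 ± 3.5 CPM in +/+ (SD, n = 3 each), which overlapped.

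Cytosolic ribosomal proteins were slightly higher. Of 46 tested genes 45 had a positive fold change, 26 were higher without overlap (21.9% of all genes) and 9 were higher at p under 0.05 (2.73%), with a median of 0.33 and a male median of 0.14. Rps12 stood at 605 and 782 CPM in E147A/+ and at 256 and 341 CPM in +/+ (log2 fold change 1.22). The list's direction rested largely on +/+ replicate 1, whose summed level was 32085 CPM against 46453 in replicate 2 and 50629 and 47275 in E147A/+. Without +/+ replicate 1 the median was 0.10. Counts of ribosomal protein genes are uncertain where pseudogenes share their sequence.

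Many ribosomal protein genes and some host genes begin transcription at a run of pyrimidines, the 5' terminal oligopyrimidine tract, so the annotated starts of 3 genes above are printed. Each window holds 15 bases before and 15 bases from the RefSeq start (GRCm38.p6), in the direction of the gene, and capitals mark a C followed by at least 6 bases that are C or T. The windows lie at chr11:6528746-6528775 (minus strand), chr4:132308663-132308692 (plus strand) and chr10:23787195-23787224 (minus strand).
Snhg15: cgctgctgtgaccgtaactttaagcacacg
Snhg12: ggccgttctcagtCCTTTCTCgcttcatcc
Rps12: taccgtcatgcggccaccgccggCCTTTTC
Such a run, searched on the gene's strand only, was present in 15 of 34 cytosolic ribosomal protein genes (44.1%), in 3 of 15 host genes (20%) and in 2003 of 11034 tested autosomal genes (18.2%). A match describes letters in an annotated window and shows no start site in these cells.

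**Figure D3:**
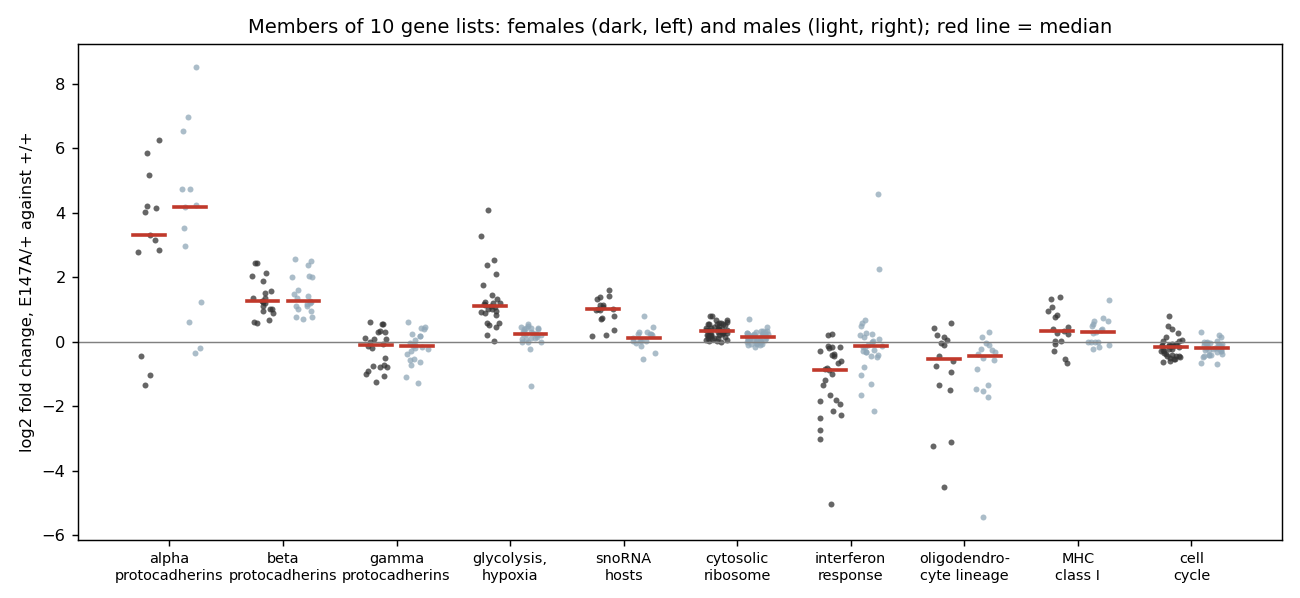
Log2 fold change of E147A/+ against +/+ for each tested member of 10 gene lists in females (dark points) and males (light points), with the list median as a red line. Beta protocadherins have medians of 1.26 and 1.28 in the 2 sexes, whereas the glycolysis and snoRNA host lists have 1.09 and 1.01 in females and 0.23 and 0.11 in males.

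Genes of the oligodendrocyte lineage differed by member. Of 16 tested, 7 were lower without overlap, 3 higher, and 3 lower at p under 0.05 (19.4%, 21.9% and 1.64% of all genes), with a median of -0.52 and a male median of -0.44. The female median was -0.20 without E147A/+ replicate 2, and -0.0289 over members averaging a log2 CPM of 3 or more. The most abundant members did not follow the median: Olig1 and Olig2, transcription factors of the lineage, had log2 fold changes of 0.05 (-0.01 without +/+ replicate 2) and 0.14, at 1107 and 1191 against 1157 and 1056 CPM for Olig1. The 3 members at p under 0.05 were low in E147A/+. Pdgfra, the growth factor receptor of oligodendrocyte precursors, stood at 5.77 and 2.84 CPM in E147A/+ and at 14 and 66.7 CPM in +/+ (log2 fold change -3.23, SE 0.76). Without +/+ replicate 2 its log2 fold change was -1.70. It lies in a bin without Cast in all 4 libraries. Omg, a myelin glycoprotein gene outside the list, stood at 0.370 and 0.647 against 2.93 and 6.04 CPM (-3.13). Gpr17, a receptor gene of immature oligodendrocytes, stood at 0.0462 and 0.0462 CPM, or 2 counts in each E147A/+ library, against 0.955 and 1.31 CPM. Sox10, a transcription factor of the lineage, stood at 3.00 and 0.439 against 3.82 and 26 CPM, a log2 fold change of -3.11 that was -1.15 without +/+ replicate 2 and -5.08 without E147A/+ replicate 1. In such bulk cultures, fewer cells of a type and less RNA per cell cannot be told apart. Males had the same sign for Gpr17 (log2 fold change -5.44) and for Omg (-2.70).

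Patterning genes of the ventral forebrain included several that were near 0 in +/+. Dlx2, a homeobox gene of interneuron precursors, stood at 2.54 and 4.37 CPM in E147A/+ and at 0.191 and 0.231 CPM in +/+ (log2 fold change 4.00, SE 0.97). Dlx1 stood at 4.67 and 5.66 against 0.318 and 0.642 CPM, Gsx2 at 3.70 and 2.17 against 0.159 and 0.514 CPM, and Six3 at 14.1 and 13 against 0.955 and 0.360 CPM. The genes named here were all higher, but of the 13 tested genes of the list 8 had a positive and 5 a negative log2 fold change, from -3.38 to 4.37. Without overlap 5 were higher and 1 lower (21.9% and 19.4% of all genes), and 4 were higher and 1 lower at p under 0.05 (2.73% and 1.64%). The median was 0.14 in total counts, and 2.17 per 129 copy, where 8 of 9 members were positive. Otx2, a homeobox gene of the anterior brain outside that list, stood at 10.2 and 13.4 against 0.0637 and 0.257 CPM (log2 fold change 6.13). Male genotypes overlapped for each of these genes, with 0.655 ± 0.319 against 0.252 ± 0.245 CPM for Dlx2 (SD, n = 3 each). Dorsal forebrain genes had 0 of 14 members without overlap in either direction (21.9% and 19.4% of all genes), and their median of -0.55 became 0.90 without +/+ replicate 2.

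Interferon-response genes were higher in 1 library. Their summed level was 156 and 155 CPM in E147A/+ and 302 and 147.2 CPM in +/+, with the excess in +/+ replicate 1. Ifi44, whose log2 fold change of -5.02 was -0.65 without that library, stood at 0.115, 0.0462, 5.38 and 0.128 CPM, and Rtp4 at 0.601, 1.18, 6.27 and 0.591 CPM, in E147A/+ 1, E147A/+ 2, +/+ 1 and +/+ 2. The list median over 28 genes was -0.86 with that library and 0.07 without it.

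Of 35 cell-cycle genes, 15 were lower and 4 higher without overlap (19.4% and 21.9% of all genes), and 1 was lower and 0 higher at p under 0.05 (1.64% and 2.73%). The median was -0.15 (male median -0.20), and against +/+ replicates 1 and 2 E147A/+ replicate 2 was higher for 15 and 13 of the 35. Mki67, a marker of dividing cells, stood at 394 and 370 CPM in E147A/+ and at 609 and 577 CPM in +/+ (log2 fold change -0.64), and the mitotic cyclin gene Ccnb2 at 70.1 and 66.3 against 96.8 and 112 CPM (-0.61). Neural stem cell identity genes had a median of 0.02 over 19 members, of which 0 were at p under 0.05. Hes1, a Notch target within it, stood at 55.7 and 49.6 against 28.9 and 25.3 CPM (0.96), a difference that became -0.15 with litter as a covariate. Hox genes, which SMCHD1 is known to affect in other tissues, could not be assessed, as 0 of 39 reached the count filter.

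Imprinted genes expressed from the paternal allele had 9 of 25 members higher and 2 lower without overlap, against 21.9% and 19.4% of all genes, with a median of 0.01. Those expressed from the maternal allele had 4 higher and 4 lower of 17, shares near those of all genes, with a median of 0.05. Within the former, 3 neighbours on chromosome 7 in the Snrpn region were higher at p under 0.05 (2.73% of all genes). Mkrn3 (62417593 to 62420139), a ubiquitin ligase gene, stood at 25.4 and 27.0 CPM in E147A/+ and at 11.4 and 13.4 CPM in +/+ (log2 fold change 1.08, SE 0.22, edgeR adjusted p 0.469). Ndn stood at 141 and 190 against 98.8 and 123 CPM (0.58), and Magel2 at 2.75 and 8.14 against 1.66 and 1.98 CPM (1.58). Without E147A/+ replicate 2 these were 0.36 and 0.61. Male fold changes were 0.81, 0.67 and 1.17.

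Allele counts at Mkrn3 were 226, 260 and 78 reads of 129 and 0 of Cast in E147A/+ 1, E147A/+ 2 and +/+ 1, and 2 of 129 and 113 of Cast in +/+ 2. Ndn gave 416, 637, 203 and 11 reads of 129 and 4, 3, 3 and 276 of Cast in the same order. The region was Cast-bearing in E147A/+ 1 and +/+ 2, with median Cast shares of 50.8% and 53.8%. It held almost no Cast in E147A/+ 2 and +/+ 1 (0.27% and 0.41%), where reads of 129 cannot tell 1 expressed allele from both. E147A/+ 1 thus expressed its non-Cast allele and +/+ 2 its Cast allele, whereas the labels name the father as the source of Cast. In E147A/+ 1, the mutant library in which both alleles can be told apart, the Cast allele gave 0 reads at Mkrn3 and 4 at Ndn.

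Strain and genotype were next compared over all genes. Where the groups differed in strain, 131 of 1719 genes (7.62%, 95% Wilson interval 6.46 to 8.97) were at p under 0.05. Where all 4 libraries had the same state the count was 48 of 1623 (2.96%, 2.24 to 3.90), and in balanced bins 175 of 4132 (4.24%). The share was high in either direction of the strain difference, 8.45% with Cast in E147A/+ and 7.20% with Cast in +/+. Among the more abundant genes (average log2 CPM of 3 or higher) the shares were 6.87% where the groups differed and 2.35% where all libraries were alike. Genes of 1 bin share their strain, so these intervals are too narrow.

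**Figure D4:**
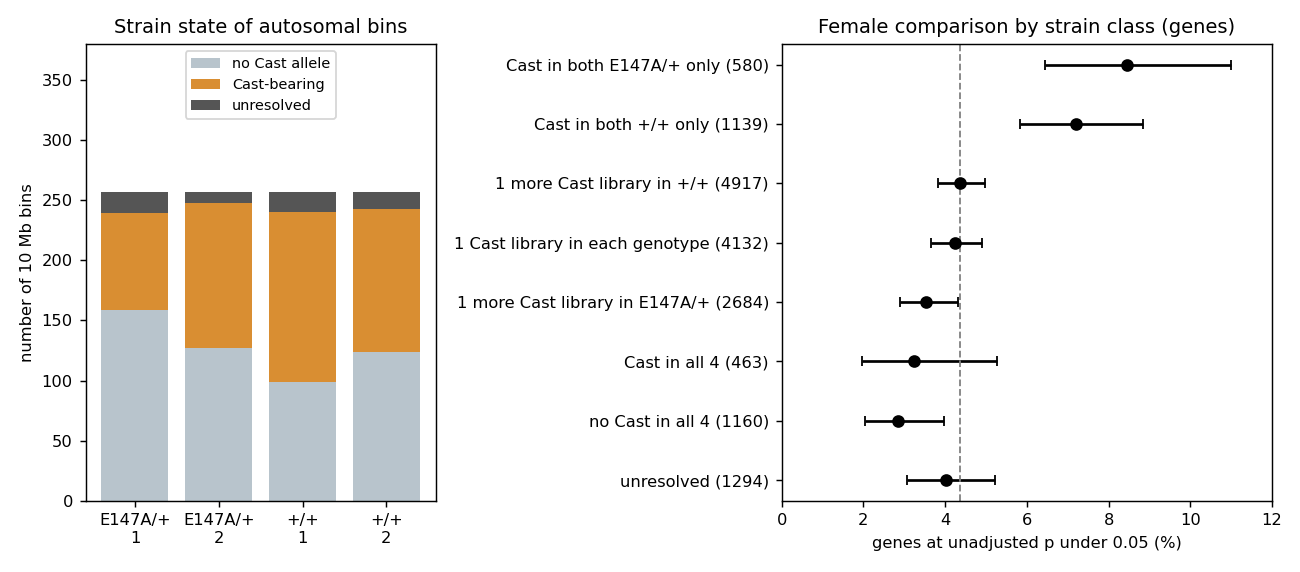
Left, number of 10 Mb autosomal bins in each strain state per female library. Right, percent of tested genes at an unadjusted p under 0.05 by strain class, with 95% Wilson intervals, the number of genes in brackets and the value for all genes (4.37%) as a dashed line. Both classes in which the genotypes differ in strain (8.45% and 7.20%) lie above the line, and the estimates for both classes with 1 state in all 4 libraries (3.2% and 2.8%) lie below it, the interval of the former crossing it.

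By chromosome, 2 stood out beside chromosome 17, where 8.22% of genes were at p under 0.05 (6.68% in males). Chromosome 18 had 10.7% in females and 10.9% in males, with 0% of its genes in bins where the groups differed in strain. The clustered protocadherins made up 25 of its 50 genes at p under 0.05 in females, and without them the shares were 6.10% and 5.12%. Chromosome 9 had 6.37% in females and 2.40% in males, with 50.1% of its genes in such bins. The other autosomes had 2.61% to 5.91%. On chromosome 17, 24 of 721 genes in bins that differed were at p under 0.05 with the same sign in both sexes. Differing bins elsewhere gave 4 such genes among 998, and all autosomes gave 98 among 16369.

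Of the 30 genes named as the 15 higher and the 15 lower with the lowest p among those without overlap, 12 lay in bins where the genotypes differed in strain, 11 of them with Cast in +/+. They were 4 of the higher and 8 of the lower genes. Of all 16369 genes, 1719 lay in such bins, 1139 of them with Cast in +/+. Balanced bins held 9 of the 30 (4132 of all genes) and bins without Cast in all libraries 1 (1160 of all genes). The rest had 1 more Cast-bearing library in one genotype or were unresolved. Signs were the same in males for 14 of the 15 higher and 14 of the 15 lower genes. Of them, 9 and 11 were at p under 0.05 in males as well (3.43% of all genes). No share of same signs over all genes was computed.

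Genes of chromosome 17 made up 8 of those 30 (779 of all 16369 genes). Dynlt1c (6601671 to 6609774), a dynein light chain gene of a multicopy family, stood at 6.17 and 5.29 CPM in E147A/+ and at 19.3 and 21 CPM in +/+ (log2 fold change -1.81, SE 0.28, edgeR adjusted p 0.358). Tagap1 stood at 35.9 and 31.6 against 9.46 and 10.4 CPM (1.76). Hsf2bp, which encodes a meiotic protein, stood at 0.323 and 0.324 against 2.61 and 3.39 CPM (-3.20). Rsph1, a gene of the ciliary radial spoke, stood at 0.370 and 0.416 against 2.83 and 2.77 CPM (-2.82). Glo1, the enzyme glyoxalase, stood at 123 and 128 against 217 and 197 CPM (-0.72). Each of these had the same sign in males, with log2 fold changes of -1.66, 1.23, -3.29, -1.86 and -0.51 in that order.

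Where a gene has unequal alleles, swapping strain alone would alter its total. That change was computed from the Cast-bearing libraries as log2 of 2 times the 129 share, with the sign set by which genotype carried Cast, for 1217 genes with at least 20 allelic reads. Across these genes it had a Pearson r of 0.12 and a Spearman rho of 0.21 with the observed difference in log2(CPM + 0.5). The values share the counts of the Cast-bearing libraries, and genes are not independent replicates. Where it was at least 0.5 in size, the observed sign was the same in 77 of 124 genes (62.1%). The calculation takes the bin state for the other genotype, and over the 994 genes whose own reads also showed no Cast there, the r was 0.19 and the rho 0.24.

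Single genes covered the whole range. Hsf2bp reads were 91.9% and 98.5% Cast in +/+, which alone gave -3.70 against an observed -2.09. Grm4, a glutamate receptor gene (1.29 and 0.786 CPM in E147A/+, 6.62 and 4.98 in +/+), had 98.5% and 90.1% Cast reads in +/+, which gave -3.11 against -2.03. The observed values carry the added 0.5 CPM, which draws low genes towards 0, and the allelic values do not, so their sizes cannot be set side by side. The edgeR log2 fold changes were -3.20 for Hsf2bp and -2.48 for Grm4. Their own shares in E147A/+ were uncertain, with 8 and 5 reads of 129 and 0 and 1 of Cast for Hsf2bp, and 15 and 5 of 129 and 6 and 1 of Cast for Grm4. Snhg15 (26.1% and 35.4% Cast reads in +/+) gave 0.47 against 1.36. Pttg1, the securin gene, stood at 41.1 and 45.3 against 88.0 and 102 CPM and had near-equal alleles, which gave -0.02 against an observed -1.12. Tmod2, which encodes an actin-capping protein and where Cast was in E147A/+, stood at 60.7 and 54.4 against 107 and 128 CPM and gave 0.32 against -1.03, the opposite sign. For Rab26 this calculation has no meaning, as its own reads were mostly Cast in both genotypes.

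**Figure D5:**
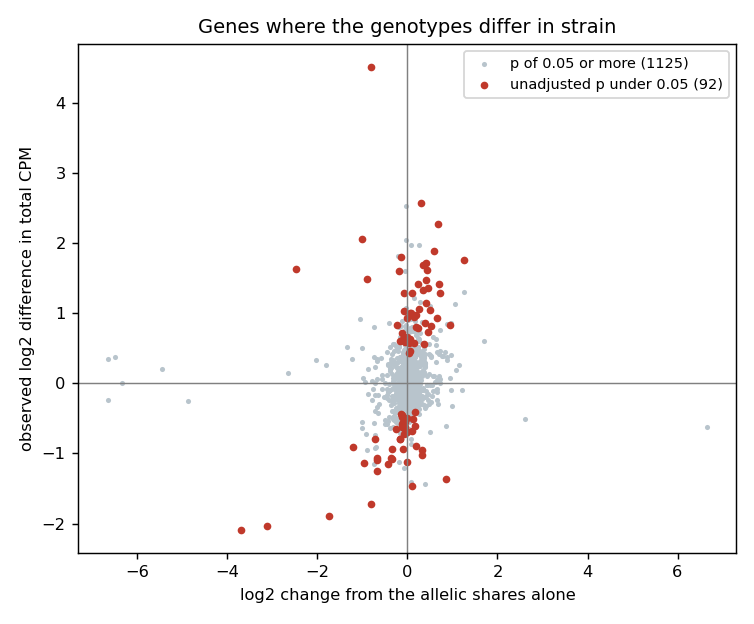
Change expected from the allelic shares alone (horizontal axis) and observed difference in log2(CPM + 0.5) between E147A/+ and +/+ (vertical axis) for 1217 genes in bins where the genotypes differ in strain; red points are the 92 genes at an unadjusted p under 0.05. Of these, 68 have the same sign on both axes. The point at 4.51 on the vertical axis is Rab26, whose own reads were mostly Cast in both genotypes, so that its horizontal value has no meaning.

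Class I genes of the major histocompatibility complex, which present peptides at the cell surface, lie on chromosome 17 and illustrate the same overlap. Of 17 tested, 13 were in bins that differed in strain, 7 were higher and 2 lower without overlap (21.9% and 19.4% of all genes), and the median was 0.33. It was 0.14 without E147A/+ replicate 1, 0.52 without E147A/+ replicate 2 and 0.65 without +/+ replicate 1. H2-T22 stood at 22.8 and 21.6 CPM in E147A/+ and at 11.4 and 9.56 CPM in +/+ (log2 fold change 1.08), and H2-Q7 at 13 and 11.7 against 5.22 and 4.16 CPM (1.39). Members of this family are near-identical and differ between strains, so their counts are uncertain.

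Comparing only 129 reads, divided by the number of 129 copies the bin carried, removes the Cast allele from both sides. Of 11670 genes 0 passed the adjusted edgeR threshold, with 1151 (9.86%) at p under 0.05. The genes with the lowest p were Gm4735 (log2 fold change -5.18), Gm49759 (3.48), Rab26 (4.10) and Ankrd37 (3.25). The size of the Rab26 value is uncertain, as its own reads did not follow the bin state that set its copies. Gm4735 in total counts stood at 69.0, 60.2, 87.9 and 91.9 CPM, with a log2 fold change of -0.48, so its 129 value was not matched by the total. Beta protocadherins were positive for 21 of 21 members in this test, with a median of 1.35, and snoRNA host genes for 14 of 14. Smchd1 had -0.58 per copy (unadjusted p 0.029 in edgeR's test).

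Genes in bins of 1 state in all libraries are the ones where Cast cannot differ by bin, and 0 of the 1623 passed edgeR's adjusted threshold (48 at an unadjusted p under 0.05). DESeq2 called 1 of them, Pdgfra, given above (adjusted p 0.00217). Clec18a, a lectin gene, stood at 0.462 and 0.601 CPM in E147A/+ and at 0.0318 and 0.0771 CPM in +/+. Stac stood at 0.601 and 0.624 against 2.90 and 2.54 CPM (log2 fold change -2.14), and Cp, the copper carrier ceruloplasmin, at 1.39 and 1.32 against 5.57 and 3.19 CPM (-1.69). The last 2 had male fold changes of 0.93 and 0.10.

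Male libraries came from separate cultures of litters 1, 3 and 4, and litters 1 and 3 also hold female cultures. In the male libraries 4 autosomal genes (0.0244%) passed the adjusted threshold. Of the 716 genes at p under 0.05 in females, 559 (78.1%) had the same sign in males, and 98 were at p under 0.05 with the same sign. No share of same signs over all genes was computed, and the part of shared litters in these counts was not tested. The test of the difference between the sexes gave 0 genes (294, or 1.8%, at an unadjusted p under 0.05 by edgeR), and its smallest adjusted p was 0.999. Dmrta1, a transcription factor gene that stood at 0.808 and 1.09 against 4.87 and 8.89 CPM in females (log2 fold change -2.86), had -0.50 in males. Fgfr2, a receptor for the FGF in the medium, stood at 5.68 and 4.67 against 17.1 and 15.8 CPM in females (-1.67) and had 0.25 in males. Cnpy1 had 0 counts in both +/+ females and 0.808 and 0.740 CPM in E147A/+, at least 8.97-fold higher against a floor of 3 counts in each +/+ library, and in males it overlapped between genotypes.

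Both calls depended on the model, while their direction did not change in any alternative run. Rab26 had an adjusted p of 0.00927 in a fit of the 4 female libraries alone and 4.04e-18 with DESeq2, but 0.316 with a replicate block and 1.0 with litter as a covariate, with log2 fold changes of 4.26 to 4.79 over the alternatives. Rps18-ps6 likewise had 0.0932, 3.52e-21, 0.243 and 1.0. Leaving out any 1 female library ended the call for Rab26 (adjusted p 0.311 to 0.804). Without +/+ replicate 1 Rps18-ps6 still passed (0.0241), and without any other library it did not (0.0565 to 0.373). DESeq2 called 41 of 16013 autosomal genes (0.256%), 23 higher and 18 lower, of which 10 were protocadherins. Of the 41, 14 lay in bins that differed in strain (1719 of all 16369 genes). The sign was the same in males for 39, for which no share over all genes was computed.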

How the data were processed

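RNA-seq libraries from 500 ng of RNA were stranded, poly(A)-selected and sequenced as 80 bp pairs, per the labels' protocols. The authors deposited 1 table of gene-level read counts, with total counts for 10 libraries and 129 and Cast counts for the 4 females. The submitters' processing notes name Trim Galore 0.4.4, HISAT2 2.0.5, featureCounts, R 3.5.1, edgeR 3.24.0 and build GRCm38 (mm10). Whether counting used strand is not given in the sources used here, so overlapping genes are uncertain.

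Total counts were tested with edgeR 4.0.16 (TMM, filterByExpr, quasi-likelihood F test, R 4.3.3) with 1 mean per sex and genotype over 10 libraries and 6 residual degrees of freedom. Adjustment ran over all 17110 tested genes, and SE is the fold change divided by the root of F. Alternatives used limma 3.58.1, DESeq2 1.42.0, other filters and scalings, 4 libraries, litter, a replicate block and leaving out each library. The members and lists were chosen with earlier results of these data known, and no list was tested as a set. A strain state needed 5 genes with at least 20 allelic reads per 10 Mb bin. Named genes were those past the adjusted threshold, the 15 higher and 15 lower without overlap and with the lowest p, Smchd1, up to 4 members per list, up to 4 per strain class and the 4 with the lowest p in the 129 test; Rab26 neighbours, Six3, Otx2, pseudogene parents and genes illustrating a contrast were added after their values were seen. Replicates had a Pearson r of log2 CPM across genes of 0.977 (E147A/+) and 0.966 (+/+). Same-numbered females are different embryos of different litters and did not deviate together (correlation -0.304). Sequences came from RefSeq (GRCm38.p6) and GENCODE M21. In simulated counts with known changes, the total-count test recovered 4 of 100 genes changed by log2 1 and 82 of 100 changed by log2 3, with 4 false calls. The 129 test recovered 12 and 100, with 3 false calls. Its simulation gave every gene the same spread, the median of the total-count spreads, so its recovery may not hold for the real 129 counts.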

Additional observations from a re-analysis of the deposited data

Results flagged for a closer look

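Counts of 4 Y-linked genes, which a female culture should lack, lie outside the autosomal comparison. There were 8 and 5 such counts in the E147A/+ libraries and 148 and 46 in +/+ replicates 1 and 2. Scaled to depth these were 0.0685%, 0.0429%, 1.75% and 0.438% of the male mean, above the 0.0257% to 0.0354% that a count of 0 allows. The library with the most, +/+ replicate 1, was also the one with high interferon-response genes and low ribosomal protein genes, and the part of the Y-linked reads in those differences was not tested.

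Genes of the Wnt pathway had opposite medians in the sexes, -0.0831 among females and 0.19 among males (log2 fold change). The difference between the sexes was not tested for the list, and 0 of its 32 members were at an unadjusted p under 0.05 in females by edgeR.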

How the results depend on the processing

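The count of autosomal genes past the adjusted threshold was 2 and became 4 with no filter, 1 with 4 libraries, 0 with litter, 0 with the replicate block, 0 with crossed numbers and 41 with DESeq2, and 0 to 1 when 1 library was left out. At an unadjusted p under 0.05 the counts, 716 above, were 273 with litter, 799 with the replicate block, 972 with crossed numbers, 1513 with 4 libraries and 413 to 735 with 1 library left out. The female numbers pair no embryos or litters (correlation -0.304), but male replicates numbered 2 and 3 share litters 1 and 3 across genotypes, so the replicate block carries litter in males. Litter 2 holds only E147A/+ replicate 2, which then adds nothing to the estimate. With litter, Ankrd37 had -1.27, Hes1 -0.15, Vegfa -0.28, Olig1 -0.28 and Nthl1 -0.0055, each opposite in sign, and list medians were 4.12 (alpha), 1.80 (beta), -0.0819 (glycolysis), 0.67 (snoRNA hosts), -0.31 (oligodendrocyte), -1.20 (dorsal), -0.10 (neural stem cell identity), -0.55 (cell cycle) and 0.18 (paternally expressed). Over genes averaging a log2 CPM of 3 or more the medians were -0.23 (interferon), -0.0289 (oligodendrocyte) and -0.0674 (paternally expressed). With 1 library left out, ranges were -2.81 to 0.58 for Rtp4, -0.0101 to 0.12 for Olig1, 3.12 to 3.72 for alpha, 1.04 to 1.54 for beta, -0.49 to 0.28 for gamma (0.28 without +/+ replicate 1), 0.82 to 1.27 for glycolysis, 0.10 to 0.63 for ribosomal proteins, -1.34 to 0.0675 for interferon, -0.64 to -0.20 for oligodendrocyte, -1.78 to 0.90 for dorsal, 0.14 to 0.65 for class I, -0.0925 to 0.10 for neural stem cell identity (-0.0925 without +/+ replicate 2), -0.32 to -0.11 for cell cycle and 0.12 to 0.29 for paternally expressed genes. With 4 libraries, 13.5% of genes were at p under 0.05 where groups differed in strain and 7.94% where all were alike. In the 129 test, 0 calls became 2 with allelic library sizes, 2 with 10 counts in each library, 2 with the replicate block, 14 with crossed numbers, and 5 or 20 without E147A/+ replicate 1 or 2 and 0 without either +/+ library. The correlation with the allelic shares was 0.11 with 50 allelic reads or with shares and totals from different libraries, and 0.19 over genes whose own reads also showed no Cast. The causes were not tested. Crossed numbers, litter for lists, the own-read condition, the snoRNA host list, the pseudogene grouping and chromosome 18 without protocadherins were chosen after seeing the data. Over the 65 single genes run, 785 values under alternatives kept direction and side of the threshold, 29 moved past it, 14 fell short of it and 7 changed sign.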
